A study of Homo sapiens with 24 samples.

Results

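The 32 genes described here carry out glycolysis or respond to low oxygen, and they were taken by symbol from 61551 genes counted in H9 cells, an established human embryonic stem cell (hESC) line. The list held 4 transporters of glucose or lactate, 15 glycolytic enzymes, 2 lactate dehydrogenases, 4 regulatory enzymes and 7 genes of the hypoxia response, and each of the 32 symbols matched a counted gene. RNA was sequenced from 4 genotypes at 2 stages, with 3 libraries per group and 24 libraries in all. The genotypes were unedited hHAR123 cells, HAR123-KO cells lacking the enhancer HAR123 within an SMG6 intron, and cells in which the chimpanzee (cHAR123) or mouse (mHAR123) ortholog replaced it. hESCs were collected at day 0 in StemFlex on Matrigel, and neuroectoderm was collected after 5 days in KnockOut DMEM with 10% serum replacement, 500 ng/ml Noggin and 10 µM SB431542. The medium changed together with the stage, so the effects of medium and of differentiation cannot be told apart. All 4 genotypes, hHAR123 included, were represented by 2 clones each, and the clone behind each library was not given. HAR123 is not a gene, so the gene counts did not check its deletion.

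Glycolysis converts glucose into pyruvate through a fixed order of enzymes, most of which exist as isozymes encoded by separate genes. Pyruvate is either reduced to lactate, which leaves the cell through monocarboxylate transporters, or enters the mitochondria through pyruvate dehydrogenase. When oxygen is low, hypoxia-inducible factor (HIF) is no longer marked for destruction by prolyl hydroxylases, binds short DNA elements with the core ACGTG or GCGTG, and raises genes for glucose uptake, glycolysis, lactate export and blood vessel growth. Pluripotent stem cells are known for high glycolytic activity, and neural differentiation is known to be accompanied by changes in glycolytic isozymes.

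Total counts ranged from 23334732 to 35198684 in hESC libraries and from 21022748 to 25978892 in neuroectoderm libraries, and mitochondrial genes took 4.02% to 4.48% and 2.16% to 2.63% of the counts, respectively. Levels below are CPM, the counts of a gene scaled to a common library total after TMM normalisation over all libraries, and log2 fold changes are given ± their standard error (SE). The summed level of 7 pluripotency markers was 4612 to 4896 CPM in hESCs and 1375 to 1583 CPM in neuroectoderm, and that of 7 neuroectoderm markers was 259 to 293 CPM in hESCs and 857 to 1882 CPM in neuroectoderm. In hHAR123, each of the 7 pluripotency markers fell, with a median log2 fold change of -6.50. Most of what remained was LIN28A, at 1390 to 1453 CPM in hHAR123 neuroectoderm. Likewise, most of the neuroectoderm sum in hHAR123 hESCs was SOX2, at 225.9 to 232.8 CPM. For neuroectoderm, average levels in the supplement of the study for cHAR123 matched the libraries labelled mHAR123, and those for mHAR123 matched the libraries labelled cHAR123. All other groups matched their own labels in the same check. Values are therefore given for the libraries labelled cHAR123 or mHAR123, and the stage comparison rests on hHAR123 and HAR123-KO. In bulk RNA, fewer cells of a type and less RNA per cell cannot be told apart.

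Differentiation was first compared within hHAR123, in which the question was how glycolysis and hypoxia genes differ between hESCs and neuroectoderm. The transporters SLC2A1 and SLC16A3, the regulators PFKFB3, PFKFB4 and PDK1, the enolase ENO2 and 5 of the 7 hypoxia genes rose at least 2-fold, whereas HK1, ALDOC, LDHB and SLC16A1 fell at least 2-fold. With edgeR's quasi-likelihood test, 11 of 32 genes were higher and 4 were lower at an adjusted p under 0.01 and a log2 fold change beyond 1, beside 24.6% and 21.2% of the 22280 genes tested. Without the limit on the fold change, 30 of 32 passed (17 higher, 13 lower), beside 80.1% of all genes. The median log2 fold change was 0.15 over the 32 genes and 0.05 over all genes. Without TMM scaling, the median of all genes shifted by 0.29, and the share of all calls that were higher moved from 53.7% to 65.5%. In hHAR123, only GPI and PKM among the genes past the adjusted p then changed sign.

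**Figure D1:**
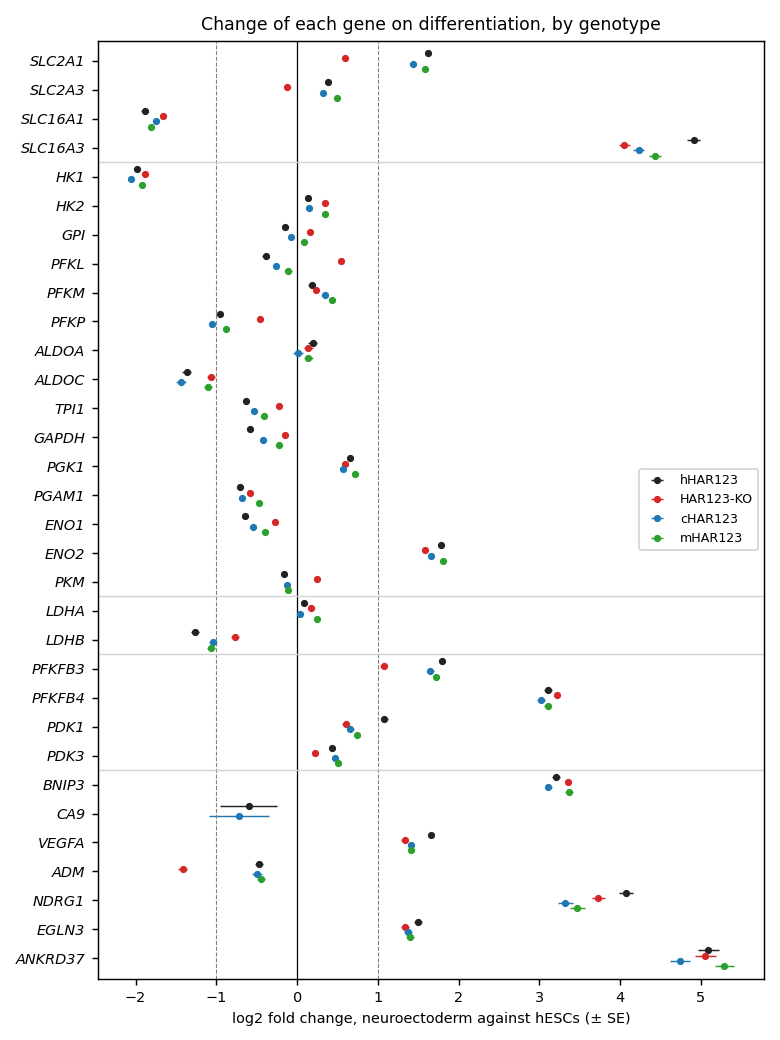
Log2 fold change of each gene in neuroectoderm relative to hESCs (x axis, ± SE) for the 4 genotypes, with genes on the y axis grouped by role and dashed lines at a 2-fold change. SLC16A3, NDRG1 and ANKRD37 lie beyond 3 in every genotype and HK1 and SLC16A1 lie below -1.6, and a genotype in which CA9 was too low to test has no point there.

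ANKRD37, an ankyrin repeat gene induced by HIF, was counted at 0.992, 0.502 and 0.787 CPM in the 3 hHAR123 hESC libraries and at 24.4, 25.9 and 27.4 CPM in neuroectoderm. Every neuroectoderm library lay far above every hESC library. The log2 fold change was 5.09 ± 0.13 (34.1-fold, adjusted p = 2.97e-31). ANKRD37 shares 40.3% of its exon bases with UFSP2 on the opposite strand, and the strand setting of the counting was not given, so its level is uncertain. NDRG1, a stress-response gene repressed by MYC, rose from 1.71 to 2.08 CPM to 30.6 to 33.2 CPM (log2 fold change 4.07 ± 0.09, adjusted p = 3.66e-32). BNIP3, a mitochondrial protein that promotes mitophagy, was counted at 16.5, 15.8 and 17.4 CPM in hESCs and at 155, 149 and 152 CPM in neuroectoderm. The levels did not overlap, with a log2 fold change of 3.20 ± 0.05 (9.19-fold, adjusted p = 2.74e-39). BNIP3 has 44 annotated pseudogenes, so reads may be divided among copies.

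The promoters of 3 members that rose together, and of CA9, which did not, are shown as examples that hold the HIF core. Sequences are the 250 bases upstream of the RefSeq start on GRCh38.p14, 5′ to 3′ on the strand of the gene, and capitals mark ACGTG or GCGTG on either strand, so that CACGT and CACGC are the same cores read from the opposite strand and CACGTG counts on both. Their positions are chr4:185396591-185396840 on the plus strand, chr10:131981924-131982173 on the minus strand, chr3:48556804-48557053 on the minus strand and chr9:35673678-35673927 on the plus strand.
ANKRD37: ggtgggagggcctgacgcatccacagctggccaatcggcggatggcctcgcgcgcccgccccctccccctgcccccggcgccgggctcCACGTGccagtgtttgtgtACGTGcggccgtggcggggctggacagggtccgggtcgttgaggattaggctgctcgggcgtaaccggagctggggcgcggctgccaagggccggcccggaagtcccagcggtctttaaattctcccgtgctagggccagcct
BNIP3: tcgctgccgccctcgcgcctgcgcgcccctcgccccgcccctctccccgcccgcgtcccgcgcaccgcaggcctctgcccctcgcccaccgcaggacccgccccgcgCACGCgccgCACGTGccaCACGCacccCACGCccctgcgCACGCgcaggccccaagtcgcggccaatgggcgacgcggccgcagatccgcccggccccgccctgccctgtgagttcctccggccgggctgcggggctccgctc
PFKFB4: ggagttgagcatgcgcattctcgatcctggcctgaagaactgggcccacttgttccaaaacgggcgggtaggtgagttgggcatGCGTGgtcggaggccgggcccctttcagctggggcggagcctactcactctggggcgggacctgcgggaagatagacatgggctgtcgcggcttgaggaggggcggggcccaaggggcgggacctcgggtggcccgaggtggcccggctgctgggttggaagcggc
CA9: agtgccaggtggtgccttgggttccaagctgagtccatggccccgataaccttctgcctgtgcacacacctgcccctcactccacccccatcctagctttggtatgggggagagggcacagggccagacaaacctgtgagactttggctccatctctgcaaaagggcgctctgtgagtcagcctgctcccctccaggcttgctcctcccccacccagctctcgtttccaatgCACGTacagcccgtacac
ANKRD37 held 3 matches to ACGTG, BNIP3 held 2 to ACGTG and 4 to GCGTG, PFKFB4 held 1 to GCGTG, and CA9 held 1 to ACGTG. RefSeq promoters were matched for 28 of the 32 genes, and 23 of the 28 held either core in at least 1 promoter. That count is per gene, some genes have several promoters, and it has no share over all genes beside it. The following shares are per promoter. ACGTG occurred in 38.9% of their 54 promoters and in 18.5% of all 35116 promoters of the same length, and either core occurred in 57.4% and 43.2%. The promoters of SLC2A1 and EGLN3, which rose with differentiation, held no match in this window, and that of ALDOC, which fell, held 5. A match is a description of the sequence and not a measured binding site.

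VEGFA, the vascular growth factor, was counted at 54.4, 53.6 and 54.0 CPM in hHAR123 hESCs and at 171.8, 169.2 and 171.7 CPM in neuroectoderm, with no overlap (log2 fold change 1.66 ± 0.04, adjusted p = 5.84e-33). EGLN3, a HIF prolyl hydroxylase that HIF itself induces, rose from 18.3 to 19.7 CPM to 53.8 to 54.5 CPM (2.82-fold, adjusted p = 4.83e-26). The remaining pair of hypoxia genes did not follow them. ADM, which encodes the vasodilator peptide adrenomedullin, was at 39.5, 37.9 and 36.0 CPM in hESCs and fell to 26.7, 27.4 and 27.6 CPM (log2 fold change -0.47 ± 0.05, adjusted p = 3.28e-10). CA9, a surface carbonic anhydrase widely used as a hypoxia marker, had 10 to 21 counts per hESC library and 3 to 14 counts per neuroectoderm library over the 4 genotypes. It was too low to test in several comparisons, and between the stages of hHAR123 its log2 fold change was -0.60 ± 0.35 (adjusted p = 0.105). CA9 also shares 35.7% of its exon bases with ARHGEF39 on the opposite strand.

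**Figure D2:**
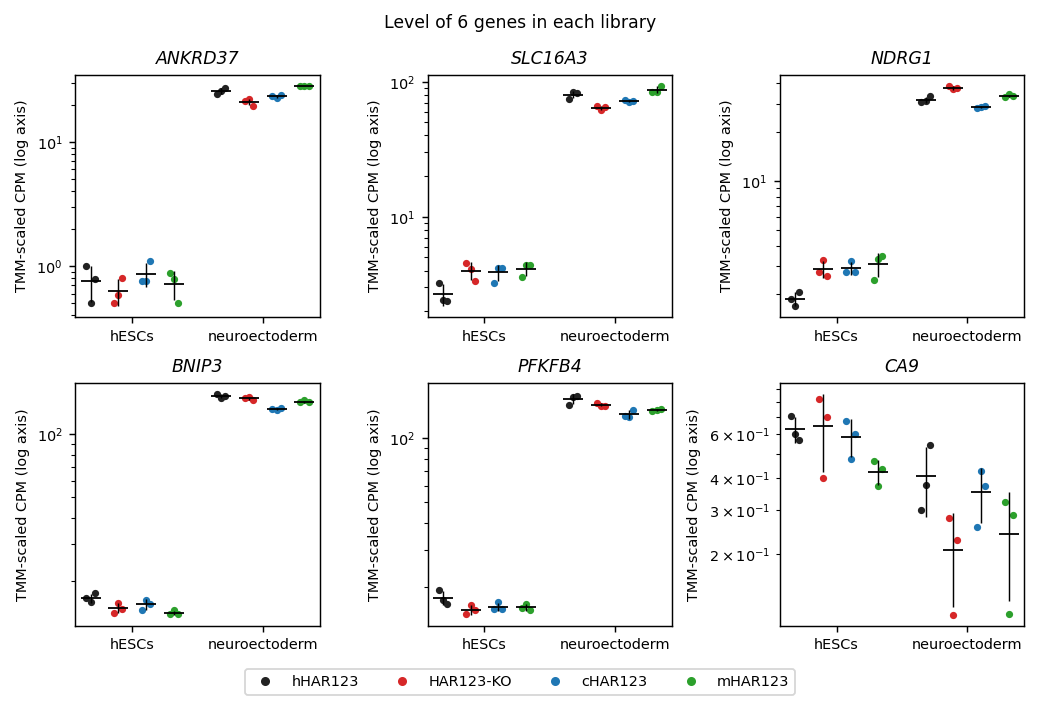
Level of ANKRD37, SLC16A3, NDRG1, BNIP3, PFKFB4 and CA9 in each of the 24 libraries (CPM, log axis), with libraries grouped by genotype and stage. The neuroectoderm libraries lie above the hESC libraries for ANKRD37, SLC16A3, NDRG1, BNIP3 and PFKFB4, whereas CA9 stays under 1 CPM.

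Among the transporters, those for glucose and SLC16A3 rose and SLC16A1 fell. SLC2A1, the glucose transporter GLUT1 (chr1:42925353-42958893, minus strand), was counted at 271, 261 and 263 CPM in hHAR123 hESCs and at 784, 824 and 828 CPM in neuroectoderm. The groups did not overlap, and the log2 fold change was 1.62 ± 0.03 (3.07-fold, adjusted p = 1.68e-35). SLC2A3, the high-affinity glucose transporter GLUT3, rose less, from 482 to 498 CPM to 623 to 643 CPM (log2 fold change 0.38 ± 0.03, adjusted p = 1.35e-15). SLC16A3, the lactate exporter MCT4 (chr17:82217934-82261129, plus strand), was at 3.26, 2.44 and 2.36 CPM in hESCs and at 75.0, 83.7 and 81.9 CPM in neuroectoderm. This difference amounted to 30.1-fold (log2 fold change 4.91 ± 0.08, adjusted p = 1.16e-37). SLC16A1, the monocarboxylate transporter MCT1, was at 446, 464 and 482 CPM in hESCs and fell to between 117 and 130 CPM (log2 fold change -1.89 ± 0.04, adjusted p = 4.94e-35). On a scale per gene length, SLC16A3 made up 0.399% ± 0.0886 (SD, n = 3) of the summed level of both lactate transporters in hESCs and 30.7% ± 2.3 (SD, n = 3) in neuroectoderm. Gene length here is all annotated exon bases of a gene (9236 for SLC16A3, 6347 for SLC16A1), not the length of its expressed transcripts. The size of this and later shares therefore depends on the annotation, and only their change between groups is read.

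All 4 regulators were higher in hHAR123 neuroectoderm. PFKFB4, a bifunctional enzyme that sets the level of the phosphofructokinase activator fructose-2,6-bisphosphate, was counted at 19.3, 17.3 and 16.7 CPM in hESCs and at 144, 157 and 159 CPM in neuroectoderm, with no overlap (log2 fold change 3.11 ± 0.05, adjusted p = 1.22e-37). Its paralog PFKFB3, known for its strong kinase activity, was at 52.7, 55.2 and 51.8 CPM and rose to 178, 188 and 184 CPM (log2 fold change 1.79 ± 0.04, adjusted p = 2.21e-33). The share of PFKFB4 in the summed per-length level of both paralogs was 25.0% ± 1.58 (SD, n = 3) in hESCs and 45.5% ± 0.793 (SD, n = 3) in neuroectoderm. PDK1 and PDK3 are kinases that inhibit pyruvate dehydrogenase. PDK1 rose from 55.3 to 57.1 CPM to 116 to 123 CPM (log2 fold change 1.08 ± 0.04, adjusted p = 1.3e-25), and PDK3 by a log2 fold change of 0.43 ± 0.03 (adjusted p = 1.65e-14).

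Of the 15 glycolytic enzymes, 5 were higher and 10 were lower in hHAR123 neuroectoderm at the adjusted p alone. The shares of all genes were 40.3% and 39.7%, respectively. Past both thresholds, 1 enzyme was higher and 2 were lower, beside 24.6% and 21.2% of all genes. The median log2 fold change was -0.39 over the 15 and 0.05 over all genes. Of the 5 higher enzymes, PGK1 and ENO2 passed under every alternative, whereas HK2, PFKM and ALDOA lost the adjusted p with DESeq2. HK2 also lost it without hESC replicate 1 or without neuroectoderm replicate 2 or 3, and ALDOA without replicate 2 or 3 of either stage. HK1, the hexokinase that traps glucose in most tissues, was at 389, 386 and 383 CPM in hESCs and fell to 96.9, 98.1 and 96.9 CPM, with no overlap (log2 fold change -1.98 ± 0.03, 3.96-fold, adjusted p = 2.49e-37). HK2, the hypoxia-inducible hexokinase, differed by 0.13 ± 0.03 (adjusted p = 0.000967). HK1 thereby made up 66.0% ± 0.60 (SD, n = 3) of the per-length hexokinase level in hESCs and 31.0% ± 0.986 (SD, n = 3) in neuroectoderm. ENO2, the enolase typical of neurons, was at 73.9, 72.5 and 71.3 CPM in hESCs and rose to 243, 256 and 249 CPM (log2 fold change 1.78 ± 0.04, adjusted p = 1.7e-34), while the widespread ENO1 fell by 0.65 ± 0.03 on the log2 scale (adjusted p = 3.44e-23). The share of ENO2 in the per-length enolase level was 5.48% ± 0.0133 (SD, n = 3) in hESCs and 23.9% ± 0.392 (SD, n = 3) in neuroectoderm. The groups of 3 libraries did not overlap for any of these shares, which were not tested.

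**Figure D3:**
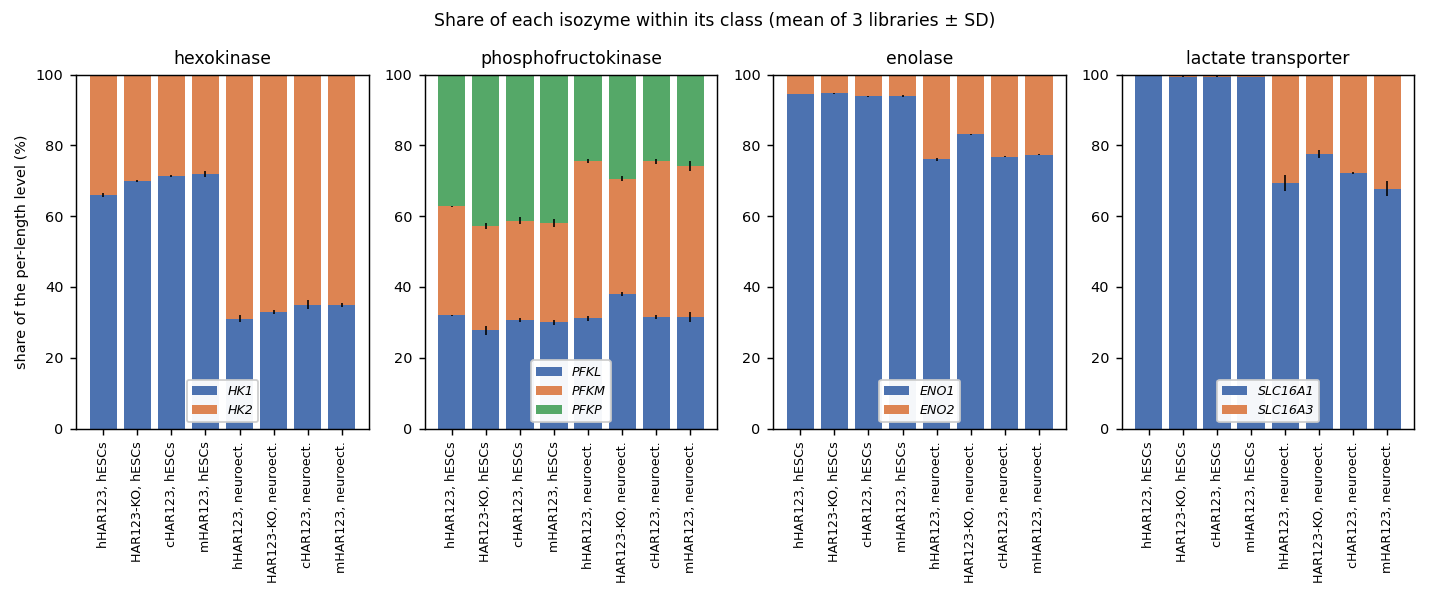
Share of each isozyme in the summed per-length level of its enzyme class (%, y axis) in the 8 groups (x axis), as the mean of 3 libraries with SD as the error bar. HK1 falls from 66.0% to 31.0% of hexokinase and ENO2 rises from 5.48% to 23.9% of enolase between hHAR123 hESCs and neuroectoderm.

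ALDOC, the aldolase typical of the nervous system, fell from 40.4 to 42.1 CPM to 15.1 to 16.4 CPM (log2 fold change -1.37 ± 0.06, adjusted p = 2.71e-23). LDHB, the lactate dehydrogenase subunit that favours pyruvate formation, fell from 50.5 to 55.2 CPM to 20.7 to 22.6 CPM (log2 fold change -1.27 ± 0.05, adjusted p = 3.05e-23). LDHA, which favours lactate formation, had a log2 fold change of 0.08 ± 0.03 and did not pass (adjusted p = 0.0102). LDHB shares 33.4% and the aldolase ALDOA 42.8% of exon bases with another annotated gene on the same strand, so the levels of both are uncertain. The phosphofructokinases PFKL, PFKM and PFKP catalyse the committed step of glycolysis. PFKL (-0.39 ± 0.04, adjusted p = 2.56e-12) and PFKP (-0.96 ± 0.04, adjusted p = 2.1e-24) were lower, the former not past the adjusted p with library totals, and PFKM had a log2 fold change of 0.18 ± 0.04 (adjusted p = 3.69e-05) that DESeq2 did not call. In the lower part of the pathway, the isomerase TPI1 (-0.64 ± 0.03, adjusted p = 6.2e-22), the dehydrogenase GAPDH (-0.58 ± 0.03, adjusted p = 7.26e-22) and the mutase PGAM1 (-0.71 ± 0.03, adjusted p = 1.8e-24) fell, while the kinase PGK1 rose (0.65 ± 0.03, adjusted p = 1.5e-22). The isomerase GPI (-0.15 ± 0.03, adjusted p = 3.37e-05) and the pyruvate kinase PKM (-0.16 ± 0.03, adjusted p = 5.65e-06) were lower with TMM scaling, and their sign turned to 0.15 and 0.13 with library totals. GAPDH has 65 and PGAM1 13 annotated pseudogenes, which makes their counts uncertain.

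On the per-length scale, the order of the most abundant genes was the same at both stages. Ranks between genes on this scale depend on the annotated exon length of each gene. GAPDH came first, with a median of 1081 CPM per kilobase of gene length over 12 hESC libraries and 844 over 12 neuroectoderm libraries, followed by ENO1 at 278.5 and 194, PGAM1 at 257 and 168, and TPI1 at 193 and 135. The ranges of ENO1 and PGAM1 overlapped at both stages. ALDOA ranked 23 in hESCs and 29 in neuroectoderm, but its exon overlap makes its rank uncertain. By the median over the genotypes, SLC2A1 moved from rank 11 to rank 5 of the 32 genes, BNIP3 from rank 26 to rank 11 and PFKFB4 from rank 28 to rank 15, whereas HK1 moved from rank 8 to rank 17 and SLC16A1 from rank 7 to rank 16. The genotypes differed for SLC2A1, whose mean in neuroectoderm was 122.8 CPM per kilobase in hHAR123 and 65.2 in HAR123-KO, where it lay below SLC2A3 (72.7) and PGK1 (73.4).

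In HAR123-KO, the 5 hypoxia genes, SLC16A3, PFKFB3, PFKFB4 and ENO2 also rose at least 2-fold, and HK1, SLC16A1, ALDOC and ADM fell at least 2-fold. SLC2A1 and PDK1 rose less than in hHAR123, by the test of the difference given below. With edgeR, 9 of 31 genes tested were higher and 4 were lower at both thresholds, beside 22.0% and 19.1% of all genes, and 30 of 31 passed the adjusted p alone, beside 79.2%. The median was 0.23 over these genes and 0.03 over all genes. The log2 fold changes were 5.05 ± 0.13 for ANKRD37, 4.05 ± 0.07 for SLC16A3, 3.73 ± 0.08 for NDRG1, 3.35 ± 0.04 for BNIP3, 3.22 ± 0.04 for PFKFB4, 1.58 ± 0.03 for ENO2, -1.89 ± 0.03 for HK1 and -1.66 ± 0.03 for SLC16A1 (adjusted p from 7.96e-58 to 3.85e-41 for these 8). SLC2A1 rose by 0.59 ± 0.03 (1.5-fold, adjusted p = 1.06e-29), and ADM fell by 1.42 ± 0.06 on the log2 scale (adjusted p = 3.3e-31). SLC2A3 and GAPDH fell by 0.13 and 0.15 in HAR123-KO with TMM scaling, and their sign turned with library totals.

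In cHAR123, 10 of 32 genes were higher and 5 lower at both thresholds, beside 21.9% and 20.8% of all genes, and 29 passed the adjusted p alone, beside 78.9%. In mHAR123, 10 of 31 were higher and 4 lower, beside 21.3% and 20.7%, and 30 passed the adjusted p alone, beside 78.6%. These comparisons set hESC and neuroectoderm libraries of the same label against each other and rest on the neuroectoderm labels in doubt. The following 4 genes moved in the same direction under both labels, although their neuroectoderm levels did not overlap between the labels. On the log2 scale and in the order cHAR123, mHAR123, ANKRD37 rose by 4.74 ± 0.12 and 5.29 ± 0.12, SLC16A3 rose by 4.23 ± 0.07 and 4.43 ± 0.07, BNIP3 rose by 3.11 ± 0.04 and 3.36 ± 0.05, and HK1 fell by 2.06 ± 0.03 and 1.92 ± 0.03.

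Genes of the same pathways outside the 32 were described from lists. Of 30 other hypoxia targets, 22 were higher and 1 was lower at both thresholds in hHAR123 neuroectoderm, with a median log2 fold change of 2.07 beside 0.05 over all genes. CXCR4, a chemokine receptor, was at 0.709, 0.569 and 0.755 CPM in hESCs and at 42.8, 44.0 and 43.5 CPM in neuroectoderm (log2 fold change 5.99 ± 0.10, adjusted p = 2.18e-36). BHLHE40, a transcriptional repressor, had a log2 fold change of 4.69 ± 0.09 (adjusted p = 7.45e-35), and CA12, another carbonic anhydrase, of -5.54 ± 0.27 (adjusted p = 1.78e-21). Of 12 genes of the HIF machinery, 4 were higher and 1 was lower, beside 24.6% and 21.2% of all genes. The higher genes included the prolyl hydroxylase EGLN1 (2.08 ± 0.08, adjusted p = 2.99e-25), the HIF inhibitor CITED2 (1.85 ± 0.04, adjusted p = 1.56e-32) and HIF3A, the least studied HIF alpha subunit (1.64 ± 0.04, adjusted p = 6.82e-30). HIF1A fell by 0.49 ± 0.03 on the log2 scale (adjusted p = 1.01e-16), which is within the fold limit, so it is not the 1 gene counted as lower. Of 23 tested genes for other glycolytic isozymes and branches, 3 were higher and 8 lower at both thresholds, beside the same shares of all genes. The tissue-restricted pyruvate kinase PKLR (-4.27 ± 0.26, adjusted p = 4.01e-18) and the gluconeogenic phosphatase FBP1 (-3.67 ± 0.35, adjusted p = 3.39e-12) fell, from at most 5.67 CPM in hESCs to at most 0.35 CPM in neuroectoderm.

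The second question was whether loss of HAR123 altered these genes. In neuroectoderm, HAR123-KO cells had less of the glucose transporters SLC2A1 and SLC2A3, of the regulators PFKFB3, PDK1 and PDK3 and of ADM and VEGFA than hHAR123 cells, and more of PFKL, PFKP, PKM, LDHB and most of the lower glycolytic enzymes. No difference reached a factor of 2. With edgeR, 0 of 31 genes tested passed both thresholds, beside 9.45% of 21362 genes. DESeq2 also called 0, and 27 genes had an unadjusted p under 0.05 with 0 of them past the fold limit. At the adjusted p alone, 13 genes were higher and 10 lower (41.9% and 32.3%), beside 24.2% and 19.9% of all genes. The median log2 fold change was 0.07 over the 31 genes and 0.00 over all genes. Many of these genes are highly counted, so changes under 2-fold can pass the adjusted p alone. In this and all other comparisons, their share past the adjusted p was not compared with that of other genes at matched counts.

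**Figure D4:**
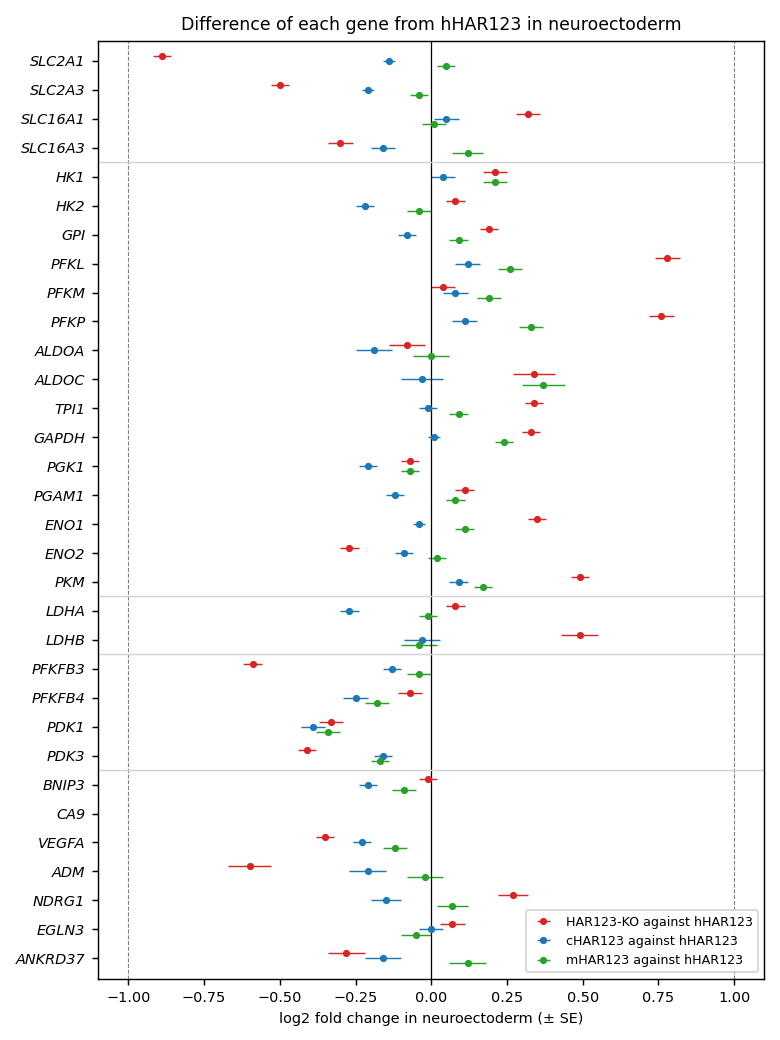
Log2 fold change of each gene against hHAR123 in neuroectoderm (x axis, ± SE) for HAR123-KO and for the libraries labelled cHAR123 and mHAR123, with genes on the y axis grouped by role and dashed lines at a 2-fold change. In HAR123-KO, SLC2A1 lies at -0.89 and PFKL at 0.78, no point lies beyond 1, and CA9 was too low to test.

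SLC2A1 was at 784, 824 and 828 CPM in hHAR123 neuroectoderm and at 439.6, 424 and 431.5 CPM in HAR123-KO neuroectoderm. Every knockout library lay below every hHAR123 library, with a log2 fold change of -0.89 ± 0.03 (1.85-fold, adjusted p = 3.88e-32). The HAR123-KO libraries also lay below the libraries labelled cHAR123 (725 to 743 CPM) and mHAR123 (812 to 877 CPM). SLC2A3 was at 643, 623 and 635 CPM in hHAR123 and at 443, 441 and 439 CPM in HAR123-KO (log2 fold change -0.50 ± 0.03, adjusted p = 6.13e-22). Lactate transport differed in both directions, with SLC16A1 higher (0.32 ± 0.04, adjusted p = 1.8e-10) and SLC16A3 lower (-0.30 ± 0.04, adjusted p = 5.08e-08). The summed level of the 4 transporters was 1632 to 1672 CPM in hHAR123 and 1086 to 1097 CPM in HAR123-KO neuroectoderm, and 1154 to 1296 CPM in the 12 hESC libraries.

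PFKL (chr21:44300051-44327376, plus strand) was at 90.01, 95.2 and 96.2 CPM in hHAR123 and at 163, 157 and 156 CPM in HAR123-KO neuroectoderm, without overlap (log2 fold change 0.78 ± 0.04, 1.72-fold, adjusted p = 4.81e-25). PFKP (chr10:3066333-3137718, plus strand) was at 63.9, 64.1 and 63.1 CPM in hHAR123 and at 108.3, 106.1 and 104.2 CPM in HAR123-KO (log2 fold change 0.76 ± 0.04, adjusted p = 2.73e-23). The third phosphofructokinase, PFKM, had a log2 fold change of 0.04 ± 0.04 (adjusted p = 0.332). PFKM made up 44.5% ± 0.637 (SD, n = 3) of the per-length phosphofructokinase level in hHAR123 neuroectoderm. Its share in the knockout was 32.6% ± 0.635 (SD, n = 3), a difference that was not tested. PKM was at 842.5, 917 and 901 CPM in hHAR123 and at 1260, 1202 and 1206 CPM in HAR123-KO (log2 fold change 0.49 ± 0.03, adjusted p = 3.15e-21). At the adjusted p alone, 10 of the 15 enzymes were higher, beside 24.2% of all genes. Only ENO2 was lower (-0.27 ± 0.03, adjusted p = 1.91e-10), beside 19.9% of all genes. The other 7 higher enzymes ranged from 0.11 ± 0.03 for PGAM1 (adjusted p = 0.00115) to 0.35 ± 0.03 for ENO1 (adjusted p = 1.4e-16). The PGAM1 difference lost the adjusted p without hHAR123 replicate 3 or HAR123-KO replicate 2, and also with library totals or a replicate block. LDHB was higher too (0.49 ± 0.06, adjusted p = 5.59e-10). The summed level of the 15 enzymes was 5865 to 6243 CPM in hHAR123 and 7242 to 7471 CPM in HAR123-KO neuroectoderm, against 8115 to 8370 CPM in hHAR123 hESCs.

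**Figure D5:**
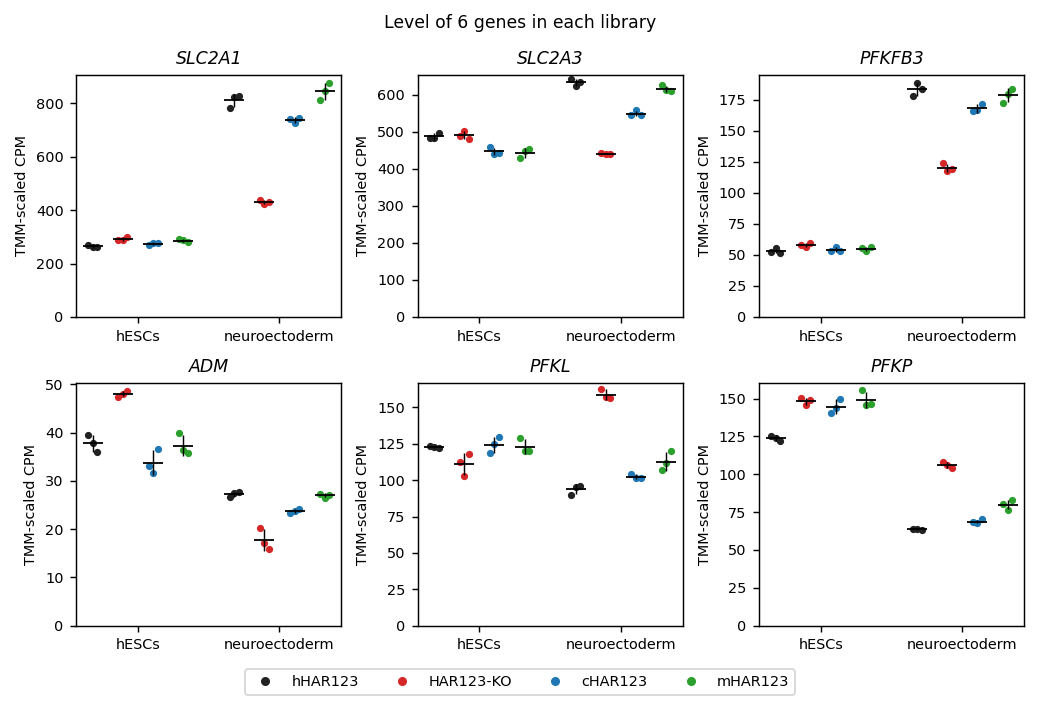
Level in each of the 24 libraries (CPM, y axis) of genes that differed between HAR123-KO and hHAR123 neuroectoderm, with libraries grouped by genotype and stage on the x axis. For SLC2A1 the HAR123-KO neuroectoderm libraries (424 to 439.6 CPM) lie below those of every other genotype in neuroectoderm, and for PFKL (156 to 163 CPM) they lie above them.

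Among the regulators, PFKFB3 was at 178, 188 and 184 CPM in hHAR123 and at 124, 118 and 119 CPM in HAR123-KO neuroectoderm (log2 fold change -0.59 ± 0.03, adjusted p = 9.21e-21). PDK1 (-0.33 ± 0.04, adjusted p = 4.75e-11) and PDK3 (-0.41 ± 0.03, adjusted p = 2.65e-15) were lower as well, whereas PFKFB4 did not pass (-0.07 ± 0.04, adjusted p = 0.082). Of the hypoxia genes, ADM (chr11:10305073-10307397, plus strand) was at 26.7, 27.4 and 27.6 CPM in hHAR123 and at 20.3, 17.2 and 15.8 CPM in HAR123-KO (log2 fold change -0.60 ± 0.07, adjusted p = 1.04e-10). These groups did not overlap, although the knockout libraries spread more than those of hHAR123. VEGFA (-0.35 ± 0.03, adjusted p = 7.05e-13) and ANKRD37 (-0.28 ± 0.06, adjusted p = 0.000205) were lower and NDRG1 was higher (0.27 ± 0.05, adjusted p = 1.95e-05). BNIP3 (-0.01 ± 0.03, adjusted p = 0.811) and EGLN3 (0.07 ± 0.04, adjusted p = 0.2) did not pass, and the 95% interval of the BNIP3 difference was -0.08 to 0.05.

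Markers of other cell types moved with the same comparison. The summed level of 7 neural crest markers was 107 to 111.5 CPM in hHAR123 and 1513 to 1523 CPM in HAR123-KO neuroectoderm, and 7 of 7 were higher with a median log2 fold change of 4.89. The summed level of 7 neuroectoderm markers was 1860 to 1882 CPM in hHAR123 and 857 to 879 CPM in HAR123-KO neuroectoderm, and 7 of 7 were lower with a median of -1.60. No neural crest marker was at 0 in either group. The part of these markers in the differences above was not tested.

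Within the HIF machinery, EPAS1, which encodes the HIF2 alpha subunit, was at 1.03, 0.981 and 0.739 CPM in hHAR123 and at 13.3, 11.6 and 12.1 CPM in HAR123-KO neuroectoderm. All 3 knockout libraries lay above all others of the stage, which had at most 1.86 CPM, and the log2 fold change was 3.77 ± 0.14 (13.6-fold, adjusted p = 1.9e-28). HIF3A was at 116, 122 and 128 CPM in hHAR123 and at 56.3, 57.1 and 57.5 CPM in HAR123-KO (log2 fold change -1.08 ± 0.04, adjusted p = 4.94e-29). HIF1A differed by -0.13 ± 0.03 (adjusted p = 0.00119). At the adjusted p alone, 3 of the 12 HIF machinery genes were higher and 5 lower, and of 29 tested other hypoxia targets, 4 were higher and 11 lower with 0 past the fold limit. Beside the 24.2% higher and 19.9% lower among all genes, these shares are not read as a result about the lists. The HIF machinery count fell from 8 to 5 without HAR123-KO neuroectoderm replicate 2. Among these targets, the collagen prolyl hydroxylase subunit P4HA1 (-0.39 ± 0.04, adjusted p = 8.35e-13) and the mitophagy receptor BNIP3L (-0.39 ± 0.04, adjusted p = 1.56e-13) were lower and the collagen lysyl hydroxylase PLOD1 was higher (0.62 ± 0.05, adjusted p = 1.98e-16). They were named after their values were seen. Of 20 tested genes for other glycolytic isozymes and branches, 5 were higher and 4 lower, which is near the share of all genes, and with DESeq2 the count was 4.

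In hESCs the knockout differed less. With edgeR and DESeq2, 0 of 32 genes passed both thresholds in HAR123-KO against hHAR123, beside 1.18% of all genes, and 19 had an unadjusted p under 0.05. At the adjusted p alone, 11 were higher and 4 lower, beside 7.06% and 5.29% of all genes. Without hHAR123 hESC replicate 1 this total fell from 15 to 9, and without hHAR123 hESC replicate 2 it fell to 8. PFKP (0.28 ± 0.03, adjusted p = 1.08e-09) and ADM (0.37 ± 0.05, adjusted p = 2.26e-08) were higher. ADM was at 39.5, 37.9 and 36.0 CPM in hHAR123 and at 47.5, 48.1 and 48.5 CPM in HAR123-KO hESCs, so its difference had the opposite sign to that in neuroectoderm. NDRG1 (0.63 ± 0.17, adjusted p = 0.00481) and SLC16A3 (0.59 ± 0.15, adjusted p = 0.00332) were also higher at levels under 5 CPM. Both lost the adjusted p with DESeq2 (0.0701 and 0.0509) and without several single libraries.

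An interaction term fitted to 12 libraries compared the knockout effect in neuroectoderm with that in hESCs. SLC2A1 was the only one of 32 genes past both thresholds, beside 7.87% of 23113 genes, with a difference of -1.06 ± 0.04 on the log2 scale (adjusted p = 2.61e-28). In hESCs its knockout effect was 0.16 ± 0.03, with 271, 261 and 263 CPM in hHAR123 and 289.6, 287 and 299 CPM in HAR123-KO. At the adjusted p alone, 11 genes had a more positive knockout effect in neuroectoderm and 9 a more negative effect, beside 18.6% and 13.9% of all genes. ADM (-0.97 ± 0.08, adjusted p = 2.94e-14), PFKL (0.90 ± 0.05, adjusted p = 3.11e-20) and SLC16A3 (-0.88 ± 0.15, adjusted p = 1.57e-06) followed by size. ADM passed the fold limit without hHAR123 hESC replicate 1 or without HAR123-KO neuroectoderm replicate 1, and SLC16A3 passed it without hHAR123 hESC replicate 1 or HAR123-KO hESC replicate 3, so the count was 2 or 3 in those fits. EPAS1 (3.33 ± 0.22, adjusted p = 4.66e-18) and HIF3A (-1.10 ± 0.06, adjusted p = 1.07e-20) differed between the stages as well.

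The third question was whether the chimpanzee and mouse orthologs altered these genes. In hESCs, where no label was in doubt, 0 of 32 genes passed both thresholds for either ortholog with edgeR or DESeq2, beside 0.850% of all genes for cHAR123 and 1.23% for mHAR123, and 19 and 20 had an unadjusted p under 0.05. For cHAR123, 5 were higher and 9 lower at the adjusted p, beside 7.72% and 8.60% of all genes, and without hHAR123 hESC replicate 2 the total fell from 14 to 9. For mHAR123, 7 were higher and 11 lower, beside 9.02% and 10.2%. PFKP was higher in both (0.25 ± 0.03, adjusted p = 1.84e-07, and 0.29 ± 0.03, adjusted p = 2.02e-10) and HK2 was lower in both (-0.20 ± 0.03, adjusted p = 2.35e-06, and -0.21 ± 0.03, adjusted p = 5.4e-08). LDHB was lower in both as well (-0.22 ± 0.04, adjusted p = 0.000245, and -0.20 ± 0.04, adjusted p = 0.000391). NDRG1 was at 2.75, 3.23 and 2.76 CPM in cHAR123 and at 2.47, 3.33 and 3.44 CPM in mHAR123 hESCs, against 1.88, 1.71 and 2.08 CPM in hHAR123 (0.64 ± 0.16 and 0.71 ± 0.16). SLC16A3 had similar differences (0.56 ± 0.15 and 0.63 ± 0.14). With DESeq2, the adjusted p of NDRG1 was 0.0431 and 0.0177 and that of SLC16A3 was 0.0572 and 0.0157, so neither passed. These comparisons and that of HAR123-KO share the same 3 hHAR123 libraries.

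In neuroectoderm, 0 of 31 genes passed both thresholds against hHAR123 with edgeR or DESeq2, beside 0.978% of all genes for the libraries labelled cHAR123 and 1.03% for those labelled mHAR123, and 23 and 19 had an unadjusted p under 0.05. At the adjusted p, 1 gene was higher and 14 were lower in libraries labelled cHAR123, beside 5.90% and 3.99% of all genes, and 8 were higher and 3 lower in libraries labelled mHAR123, beside 8.80% and 5.21%. These shares were not compared at matched counts either. The 1 higher gene for the label cHAR123 was PKM (log2 fold change 0.09), which lost the adjusted p under 8 alternatives. ADM, among the 14 lower genes, lost it under 9. PDK1 was at 123, 117 and 116 CPM in hHAR123, at 91.3, 93.0 and 87.8 CPM in libraries labelled cHAR123 and at 98.6, 93.8 and 90.4 CPM in libraries labelled mHAR123. Together with HAR123-KO (90.8, 93.0 and 94.6 CPM), all 9 edited libraries lay below the 3 hHAR123 libraries that the comparisons share. The log2 fold change of PDK1 was -0.39 ± 0.04 (adjusted p = 2.13e-11) for the label cHAR123 and -0.34 ± 0.04 (adjusted p = 2.33e-08) for mHAR123, so this direction does not turn on which label is right. LDHA (-0.27 ± 0.03, adjusted p = 3.32e-10), PFKFB4 (-0.25 ± 0.04, adjusted p = 2.09e-06) and VEGFA (-0.23 ± 0.03, adjusted p = 4.82e-07) were lower in libraries labelled cHAR123. ALDOC (0.37 ± 0.07, adjusted p = 6.13e-05), PFKP (0.33 ± 0.04, adjusted p = 1.94e-07) and PFKL (0.26 ± 0.04, adjusted p = 8.94e-06) were higher in libraries labelled mHAR123. The summed level of the 7 neural crest markers was 248 to 259 CPM and 294 to 299.7 CPM in these groups, against 107 to 111.5 CPM in hHAR123, and its part was not tested.

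Both ortholog groups were also set against HAR123-KO neuroectoderm. With edgeR and DESeq2, 0 of 31 genes passed both thresholds, beside 7.61% of all genes for the label cHAR123 and 7.33% for mHAR123, and 28 and 24 had an unadjusted p under 0.05. At the adjusted p, 8 genes were higher and 18 lower in libraries labelled cHAR123 than in HAR123-KO, beside 18.8% and 20.3% of all genes, and 10 were higher and 9 lower in libraries labelled mHAR123, beside 17.8% and 18.7%. SLC2A1 had the largest difference in both, with 0.77 ± 0.02 (adjusted p = 2.66e-42) and 0.97 ± 0.03 (adjusted p = 2.03e-33), and the latter passed the fold limit without mHAR123 neuroectoderm replicate 1. In libraries labelled cHAR123, PFKL (-0.63 ± 0.03, adjusted p = 2.74e-29), PFKP (-0.63 ± 0.03, adjusted p = 2.89e-26) and LDHB (-0.50 ± 0.06, adjusted p = 1.55e-11) were lower than in HAR123-KO, and ADM (0.42 ± 0.07, adjusted p = 1.81e-07) and PFKFB3 (0.48 ± 0.03, adjusted p = 9.49e-24) were higher. The same 5 genes passed in the same direction in libraries labelled mHAR123, with PFKL at -0.50 ± 0.03 (adjusted p = 3.74e-17), PFKP at -0.41 ± 0.04 (adjusted p = 6.32e-14), LDHB at -0.51 ± 0.06 (adjusted p = 2.02e-10), ADM at 0.60 ± 0.07 (adjusted p = 9.91e-11) and PFKFB3 at 0.57 ± 0.03 (adjusted p = 1.55e-20).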

How the data were processed

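Bulk RNA-seq was analysed from 24 libraries in 8 groups of 3, grouped by the sample labels. Ribosomal RNA was removed before strand-specific library preparation. The authors aligned paired-end reads to GRCh38 with STAR 2.5.2b and deposited raw counts per Ensembl gene from featureCounts. The strand setting and the treatment of reads from repeated copies are not given in the sources used here, which leaves overlapping genes and genes with pseudogenes uncertain. An entry broken over 3 lines was left out, 61551 genes were used, and all columns were mapped.

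Each pair of groups was fitted alone in edgeR 4.0.16 (R 4.3.3) with filterByExpr, TMM and the quasi-likelihood F test, with Benjamini-Hochberg adjustment over all genes tested. The interaction used 12 libraries. Genes were counted at the thresholds of the study (adjusted p below 0.01 with a change of more than 1 log2 unit either way) and at the adjusted p alone. The SE was derived from the log2 fold change and the F statistic, and intervals are at 95%. Levels are CPM with TMM factors over all libraries (0.891 to 0.944 in hESCs, 1.06 to 1.111 in neuroectoderm). The fit was tested on simulated data with 200 changed genes among 21362 for HAR123-KO against hHAR123 neuroectoderm, and 100% were called with 2 unchanged genes. The planted changes all lay beyond the fold limit and in well-counted genes. The simulation therefore did not test differences below the fold limit, such as those reported for this comparison.

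The genes, lists and rules were chosen with earlier results of these data known. Members given in full are at most the 8 largest called changes, or the 4 largest past the adjusted p where fewer were called, plus others named for their role. In the lists, up to 3 of the largest called genes are named, some genes are not reported here, and others were named after their values were seen. Replicates differed by more than counting noise (chi-square per degree of freedom 1.412 to 5.531 over 24 pairs). Whether replicates were separate cultures is not stated, so p-values measure the spread between these libraries. Alternatives were DESeq2 1.42.0, its size factors, no filter, all libraries in 1 fit, a replicate block, an adjusted p under 0.05, each library left out and, chosen after seeing the data, library totals without TMM.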

Additional observations from a re-analysis of the deposited data

Results flagged for a closer look

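For 20 of the 32 genes, the knockout effect was not the same in hESCs and neuroectoderm by edgeR's test of the interaction at an adjusted p under 0.01. They are listed because the same contrast gave different effects at the 2 stages. Values are the neuroectoderm effect minus the hESC effect on the log2 scale.

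The knockout effect was more negative in neuroectoderm for the transporters SLC2A1 (-1.06), SLC16A3 (-0.88) and SLC2A3 (-0.54). It was also more negative for the regulators PFKFB3 (-0.74), PDK1 (-0.50) and PDK3 (-0.23), for ADM (-0.97) and VEGFA (-0.36), and for the enolase ENO2 (-0.23). The knockout effect was more positive in neuroectoderm for the phosphofructokinases PFKL (0.90) and PFKP (0.47) and for LDHB (0.48). GAPDH (0.41), TPI1 (0.39), PKM (0.37), ENO1 (0.36), GPI (0.29), ALDOC (0.28) and HK2 (0.20) followed, as did the transporter SLC16A1 (0.21). SLC2A1, SLC16A3, GPI, GAPDH, PDK1, PFKFB3 and ADM passed the adjusted p at both stages with opposite signs. Only SLC2A1 and ADM of these kept the hESC call under every alternative, while PFKFB3, PDK1 and SLC16A3 lost it with DESeq2 and without several single libraries. GPI and GAPDH lost it without several single libraries. GPI also lost it with library totals and with a replicate block, and PFKFB3 with no filter and with all libraries in 1 fit. The interaction of ALDOC lost the adjusted p with library totals and without replicate 2 of hHAR123 or HAR123-KO hESCs, hHAR123 neuroectoderm replicate 3 or HAR123-KO neuroectoderm replicate 2, and those of SLC16A1 and HK2 lost it with library totals. The sum of neural crest markers also differed between the knockout groups of both stages (127 to 132 CPM in hESCs, 1513 to 1523 CPM in neuroectoderm), and its part was not tested. Most of the sum in HAR123-KO hESCs was ETS1, at 81.1 to 83.2 CPM, and FOXD3, at 38.9 to 41.75 CPM.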

How the results depend on the processing

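For the 68 largest changes chosen by the rule for genes given in full, 820 of 840 alternatives kept the direction and the side of the threshold, and the 20 that lost the adjusted p were all for NDRG1 or SLC16A3 in hESCs. Smaller changes were less stable. Of the genes past the adjusted p, some lost the call under at least 1 alternative. In hESCs these were 9 of 15 (HAR123-KO), 8 of 14 (cHAR123) and 8 of 18 (mHAR123). In neuroectoderm against hHAR123 they were 1 of 23 (HAR123-KO), 5 of 15 (label cHAR123) and 2 of 11 (label mHAR123). Against HAR123-KO neuroectoderm they were 1 of 26 (label cHAR123) and 2 of 19 (label mHAR123). Between the stages of hHAR123 they were 4 of 30, and in the interaction 3 of 20. Counts over the 32 genes stayed within 1.5 times of the reported count except as follows. With library totals in place of TMM, 2 genes rather than 1 passed both thresholds in the interaction. Leaving out single libraries gave 8 to 14 genes past the adjusted p for HAR123-KO in hESCs (15 with all libraries), 9 to 15 for cHAR123 in hESCs (14 with all), 0 to 1 genes past both thresholds for mHAR123 against HAR123-KO in neuroectoderm (0 with all) and 1 to 3 in the interaction (1 with all). Library totals turned the sign in the stage comparison for PKM in 3 genotypes, GPI in 2 and SLC2A3, GAPDH and PFKL in 1 each. Among the other lists in HAR123-KO neuroectoderm, the count past the adjusted p moved from 9 to 4 for other glycolytic isozymes with DESeq2 and from 8 to 5 for the HIF machinery without HAR123-KO replicate 2.

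Replicate numbers did not pair the samples. Correlations of the deviations of same-numbered libraries ranged from -0.06 to 0.06, and in 9 of 36 cases a library correlated best with the library of its own number in the group it was compared with. With the replicate number as a block, 22 genes passed the adjusted p for HAR123-KO in neuroectoderm (23 without it), 15 in hESCs (15 without it) and 1 passed both thresholds in the interaction. Depth limited CA9, with 3 to 21 counts per library, for which no change was detectable.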

Other observations

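Genes of 2 neighbouring pathways, described from lists, moved as follows. Of 8 genes of the pentose phosphate pathway, which makes NADPH and ribose, 7 were tested in the hHAR123 stage comparison. Of these, 4 were lower past both thresholds and 0 were higher, beside 21.2% and 24.6% of all genes, with a median log2 fold change of -1.31 beside 0.05 over all genes. TKT (-2.18 ± 0.03), TALDO1 (-1.87 ± 0.04) and RPIA (-1.39 ± 0.08) fell most. In HAR123-KO against hHAR123 neuroectoderm, 7 of 8 were higher and 1 was lower at the adjusted p, beside 24.2% and 19.9% of all genes, with a median of 0.36. TKTL1, a transketolase-like gene, was at 0.30, 0.528 and 0.467 CPM in hHAR123 and at 5.79, 4.54 and 5.26 CPM in HAR123-KO neuroectoderm (log2 fold change 3.58 ± 0.21, edgeR adjusted p = 2.21e-20).

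Of 11 tested genes for pyruvate entry into mitochondria, 2 were lower past both thresholds and 0 were higher in hHAR123 neuroectoderm relative to hESCs, again beside 21.2% and 24.6% of all genes, with a median of -0.71. The phosphatase PDP2 (-1.31 ± 0.05) and the pyruvate dehydrogenase subunit PDHB (-1.04 ± 0.04) were those 2. PC, pyruvate carboxylase, was at 15.6, 16.5 and 16.9 CPM in hHAR123 and at 34.6, 34.7 and 32.7 CPM in HAR123-KO neuroectoderm, without overlap (log2 fold change 1.08 ± 0.06, edgeR adjusted p = 2.83e-21). Its knockout effect differed between the stages by 1.16 ± 0.08 (edgeR adjusted p = 3.36e-17).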
